A study of Mus musculus with 75 samples.

Results

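Genes that mark the excitatory neurons of the cerebral cortex and the layers they lie in were followed across ribosome-bound RNA from mouse visual cortex. The 9 genes were Slc17a7, Neurod2, Neurod6, Tbr1, Cux2, Rorb, Fezf2, Bcl11b and Foxp2, taken by gene symbol from a table of 14284 genes. All 9 were in the table, passed the filter on low values in every fit and had reads in every library.

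The study gave light to dark-housed adult mice to ask how visual experience changes gene expression in separate classes of cortical neuron. C57BL/6 mice aged 8 weeks carried a Cre allele (Emx, Gad2, PV, SST or VIP) and the Rpl22-HA (RiboTag) allele, both heterozygous, so that all groups share the tagged ribosomal protein. Cells with Cre recombinase put an HA tag on their ribosomes, and the RNA bound to them was pulled out of the tissue and sequenced. For each line there were mice housed in the dark, dark-housed mice given light for 1 h, 3 h or 7.5 h, and mice in standard housing. Each group held 3 samples, with visual cortices of 3 mice pooled in each, except that SST dark and SST standard each had 2 usable samples, because their columns for replicate 2 were empty. The Emx line stands for the excitatory class. Gad2 is active in inhibitory neurons in general, and PV, SST and VIP mark separate inhibitory classes. Emx genes are active in the progenitors of the dorsal forebrain, which give rise to excitatory neurons and also to glia.

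Values are normalized signals, gene read counts that the authors divided by a factor per library. They are not divided by gene length, so levels are compared between samples and never between genes. The 73 libraries held 7.28 to 52.3 M gene reads (median 24.8), with medians of 33.0 M in the dark, 29.9 M after 1 h, 31.4 M after 3 h, 13.01 M after 7.5 h of light and 15.2 M in standard housing. The fewest reads behind a value were 11, for Foxp2 in a Gad2 library. Line labels were checked against markers. The summed signal of 10 inhibitory markers was 4058 to 6223 in Emx libraries, against 114071 to 204346 in the libraries of the other 4 lines. The summed signal of 6 excitatory markers, of which Slc17a7 and Neurod6 are also among the 9 genes, was 115932 to 169629 in Emx libraries, against 12585 to 76577 in those of the other 4 lines. Emx libraries also held the most signal of astrocyte and oligodendrocyte markers. The 8 microglial markers had their lowest median sum in Emx, at 236, against 461 (PV), 516 (SST), 1561 (VIP) and 2728 (Gad2). All 10 astrocyte markers were found and none had a median of 0 in any line, and their sum was 162761 to 220315 in Emx, against 13705 to 65992 (Gad2), 14931 to 31607 (PV), 15063 to 48894 (SST) and 39396 to 70122 (VIP). The part of these other cells in the results was not tested.

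Excitatory neurons of the cortex release glutamate and arise from progenitors of the dorsal forebrain, in which a cascade of transcription factors fixes first the excitatory fate and then the identity of a layer. Slc17a7 encodes VGLUT1, which loads glutamate into synaptic vesicles. Neurod2 and Neurod6 are basic helix-loop-helix factors of young and mature excitatory neurons and bind the E-box, CANNTG. The layer genes run from the surface down. Cux2, a homeobox factor, marks the upper layers, Rorb, a nuclear receptor, marks layer 4, and Fezf2 and Bcl11b, both zinc finger proteins, act in the subcortical projection neurons of layer 5. Tbr1, a T-box factor, and Foxp2, a forkhead factor, mark layer 6. Cux2 and Bcl11b are also known in inhibitory neurons of the cortex, and Bcl11b and Foxp2 in striatal projection neurons.

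The promoters of a group whose signal moved together across lines (Slc17a7, Neurod2, Neurod6) and of the gene that moved least like them (Bcl11b) are shown because the helix-loop-helix members bind a motif that can be searched for in them. Each is the 250 bases before the RefSeq start (GRCm38.p6), 5′ to 3′ on the gene's strand, with each CANNTG in capitals. The motif is its own reverse complement in form, so 1 search covers both strands. They lie at chr7:45163671-45163920 (plus strand), chr11:98329646-98329895 (minus), chr6:55681264-55681513 (minus) and chr12:108003415-108003664 (minus), in that order of genes.
Slc17a7: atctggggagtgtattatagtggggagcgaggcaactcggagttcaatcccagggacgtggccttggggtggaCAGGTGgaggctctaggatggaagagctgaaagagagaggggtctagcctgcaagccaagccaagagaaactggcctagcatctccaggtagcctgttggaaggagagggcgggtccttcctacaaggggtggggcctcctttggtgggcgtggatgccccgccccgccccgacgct
Neurod2: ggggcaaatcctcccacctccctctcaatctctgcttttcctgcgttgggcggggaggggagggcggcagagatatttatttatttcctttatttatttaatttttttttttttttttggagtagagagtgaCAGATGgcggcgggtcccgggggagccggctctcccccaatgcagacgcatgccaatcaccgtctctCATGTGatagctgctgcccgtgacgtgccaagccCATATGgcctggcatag
Neurod6: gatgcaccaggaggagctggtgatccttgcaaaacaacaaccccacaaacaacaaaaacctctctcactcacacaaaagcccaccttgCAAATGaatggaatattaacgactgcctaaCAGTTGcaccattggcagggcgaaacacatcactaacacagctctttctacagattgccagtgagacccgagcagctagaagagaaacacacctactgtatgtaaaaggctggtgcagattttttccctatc
Bcl11b: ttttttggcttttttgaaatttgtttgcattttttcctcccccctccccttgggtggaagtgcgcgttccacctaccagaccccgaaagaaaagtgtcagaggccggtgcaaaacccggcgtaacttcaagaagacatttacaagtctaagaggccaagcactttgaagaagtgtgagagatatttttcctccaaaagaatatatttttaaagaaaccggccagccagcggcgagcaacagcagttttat
CANNTG occurred once in the Slc17a7 window, at 3 places in that of Neurod2 and at 2 in that of Neurod6, and not in that of Bcl11b. Of the 32851 promoters in the table, 66.2% held it. The form CAGATG or CATCTG, which overlaps CANNTG, was in 14.4% of all promoters, in the Neurod2 window and in entry 2 of Cux2. Of the other members, Tbr1 had 1 match, Fezf2 had 0, Cux2 had 1 and 2 in its 2 entries and Rorb had 0 and 2. Foxp2 was not matched in the table.

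In the comparison of lines, 7 of the 9 genes were higher in Emx than in each of the 4 inhibitory lines, and the other 2, Cux2 and Bcl11b, differed from Emx by less than 2-fold in Gad2, PV and SST. A gene was called between lines at a 5% false discovery rate over all genes (limma) and at least a 2-fold difference. By that rule 7 of 9 were called higher in Emx against Gad2, PV and SST, where 15.1%, 20.6% and 15.9% of all 14213 genes tested were called higher. Against VIP all 9 were called higher, beside 14.7% of all genes. None of the 9 was called lower in Emx, beside 10.3%, 10.8%, 9.51% and 9.86% of all genes in the 4 comparisons, in the same order. In bulk libraries, fewer cells of a type and less RNA per cell cannot be told apart. The fit between lines treated libraries as independent, although samples of the same replicate number within a line deviated together. The SEs, intervals and p-values between lines may therefore be too small.

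Slc17a7 had a lowest, median and highest signal of 16872, 23790 and 29714 in the 15 Emx libraries. The same values were 719, 1148 and 1411 (Gad2), 994, 1436 and 2290.2 (PV), 1088, 1876 and 2721 (SST, 13 libraries) and 1950, 4467 and 5685 (VIP). No Emx library overlapped a library of another line. The share of all genes whose lines separate in this way was not counted, here or for the other genes compared between lines. The line means were 23451 ± 4023 in Emx, against 1102 ± 199.8 (Gad2), 1539.8 ± 409 (PV), 1885 ± 477 (SST) and 4236 ± 1089 (VIP) (SD). The log2 difference of Emx over Gad2 was 4.41 (SE 0.13, adjusted p = 2.916e-35), and that of Emx over VIP was 2.50 (SE 0.13, adjusted p = 1.266e-23). Expressed as a share of the Emx mean, Slc17a7 signal was thus 4.70% (Gad2), 6.57% (PV), 8.04% (SST) and 18.1% (VIP).

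**Figure D1:**
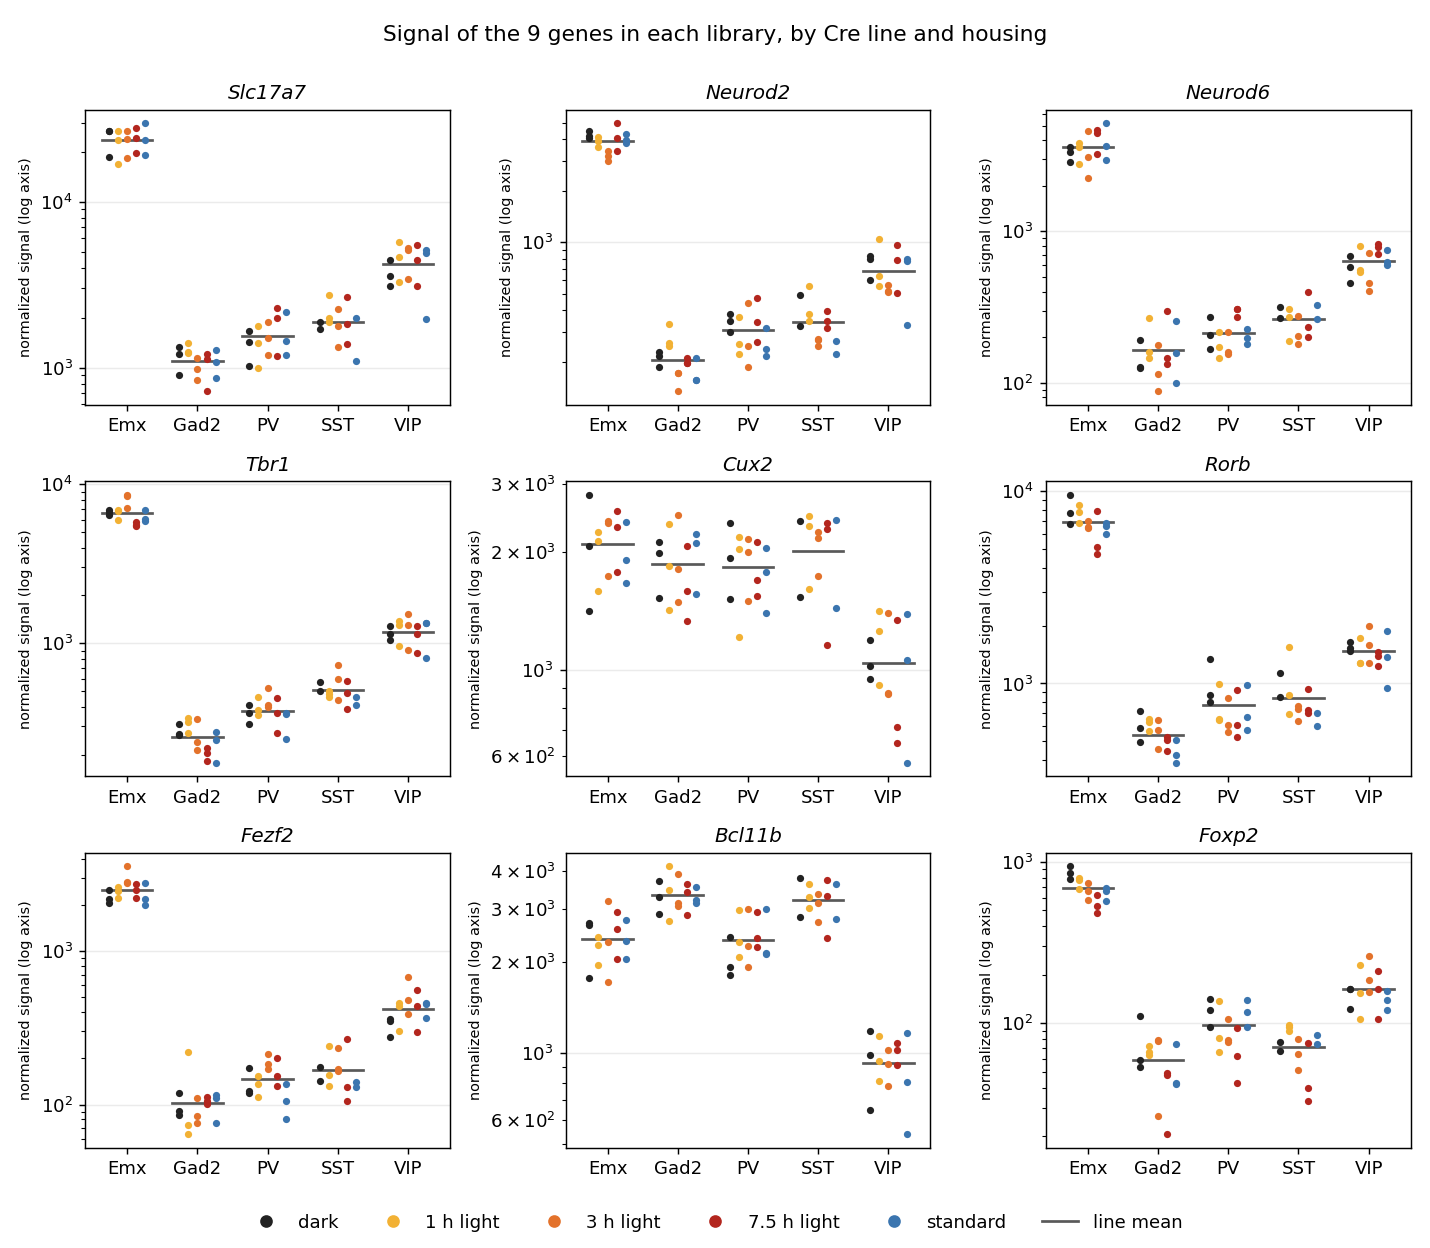
Normalized signal (log axis) of each of the 9 genes in every library, by Cre line, with points coloured by housing and a bar at the mean of the line. Slc17a7, Neurod2, Neurod6, Tbr1, Rorb, Fezf2 and Foxp2 stand highest in Emx and second in VIP, while Cux2 and Bcl11b are lowest in VIP (Bcl11b mean 931) and near or above the Emx level in Gad2, PV and SST.

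The excitatory transcription factors followed the same order of lines. Neurod2 averaged 3894 ± 512 in Emx, against 205 ± 49.6 (Gad2), 306 ± 84.2 (PV), 340.5 ± 96.5 (SST) and 682 ± 195 (VIP). Neurod6 averaged 3611 ± 811 in Emx, against 165 ± 62.3 (Gad2), 213 ± 53.4 (PV), 263 ± 62.6 (SST) and 633 ± 134.5 (VIP). For both, the lowest Emx library lay above the highest VIP library, at 2999.6 against 1051 for Neurod2 and 2237 against 826 for Neurod6. The log2 difference of Emx over Gad2 was 4.26 for Neurod2 and 4.49 for Neurod6 (SE 0.11 and 0.13), and over VIP it was 2.56 and 2.51.

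Among the layer genes with this pattern, Tbr1 of layer 6 had the largest log2 difference of Emx over Gad2, at 4.69 (SE 0.09). Its signal averaged 6627 ± 935 in Emx, against 258 ± 52.6 (Gad2), 378 ± 70.4 (PV), 509 ± 93.0 (SST) and 1176 ± 214 (VIP). Fezf2 of layer 5 averaged 2515 ± 406 in Emx, against 103 ± 37.1 (Gad2), 146 ± 36.9 (PV), 168 ± 49.0 (SST) and 420.04 ± 106 (VIP), a log2 difference of 4.64 over Gad2 (SE 0.13) and 2.60 over VIP (SE 0.13). Both genes stood at about the share of the Emx mean that Slc17a7 had, 3.89% and 4.10% in Gad2 and 17.7% and 16.7% in VIP.

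Rorb and Foxp2 differed less between Emx and the other lines. Rorb had a lowest, median and highest signal of 4689.8, 6802 and 9560.1 in Emx. These values were 387, 528 and 720.03 (Gad2), 526, 674 and 1343 (PV), 602, 739 and 1552 (SST) and 947, 1461 and 1989 (VIP). Foxp2 had 482, 676 and 938 in Emx. In the other lines it had 20.5, 59.4 and 112 (Gad2), 42.6, 95.1 and 141 (PV), 33.1, 75.7 and 97.7 (SST) and 107, 159.7 and 261 (VIP). Again no library of another line reached the lowest Emx library. The log2 difference of Emx over Gad2 was 3.68 for Rorb (SE 0.11) and 3.61 for Foxp2 (SE 0.15), and over VIP it was 2.24 (SE 0.11) and 2.102 (SE 0.15). As a share of the Emx mean, Rorb stood at 7.81% (Gad2), 11.1% (PV), 12.1% (SST) and 21.1% (VIP), and Foxp2 at 8.55%, 14.0%, 10.3% and 23.6% in those lines.

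Cux2, the upper-layer factor, was at a like level in 4 of the 5 lines and lower in VIP. Its lowest, median and highest signal was 1412, 2141 and 2808 in Emx. In the other lines it was 1337, 1841 and 2499.7 (Gad2), 1217, 1929 and 2378 (PV), 1160, 2256 and 2481 (SST) and 577, 1022.5 and 1413 (VIP). The Emx range overlapped that of every other line, and with VIP the overlap was at the edge, 1412 in Emx against 1413 in VIP. The log2 difference of Emx over Gad2 was 0.17 (95% interval -0.10 to 0.43, adjusted p = 0.264), over PV 0.19 (-0.07 to 0.45, adjusted p = 0.1941) and over SST 0.07 (-0.20 to 0.35, adjusted p = 0.6537). With the replicate number as a block the differences from Gad2 and PV passed the 5% rate (adjusted p = 0.0283 and 0.0128) at the same size, well under 2-fold. Over VIP the log2 difference was 1.04 (SE 0.13, adjusted p = 7.89e-10), just past the 2-fold line, and it was 0.95 without replicate number 1, 0.99 under TMM scaling and 0.95 in dark-housed groups alone.

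Bcl11b, the layer 5 factor, was highest in Gad2 and SST. Its lowest, median and highest signal was 1723, 2354 and 3176 in Emx. The same values were 2737, 3286 and 4142 (Gad2), 1818, 2257 and 2997 (PV), 2396, 3284 and 3793 (SST) and 539.6, 939 and 1186 (VIP). The Emx range overlapped those of Gad2, PV and SST and lay above that of VIP. Means were 2381 ± 425 in Emx, against 3338 ± 399 (Gad2), 2369 ± 412 (PV), 3198 ± 438 (SST) and 931 ± 189 (VIP). The log2 difference of Emx over Gad2 was -0.50 (SE 0.10, adjusted p = 1.563e-05) and over SST -0.44 (SE 0.10, adjusted p = 0.0002477), both under 2-fold and so not called. Over PV it was 0.00 (95% interval -0.19 to 0.20), and over VIP it was 1.36 (SE 0.10, adjusted p = 4.87e-18). The 8 striatal projection neuron markers, all found, summed to 4779 to 7395 in Emx, against 5917 to 7783 (Gad2), 3224 to 4621 (PV), 5011 to 7321 (SST) and 19431 to 30723 (VIP). That sum was highest in VIP, where Bcl11b was lowest, and the part of striatal cells in the Bcl11b signal was not tested.

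**Figure D2:**
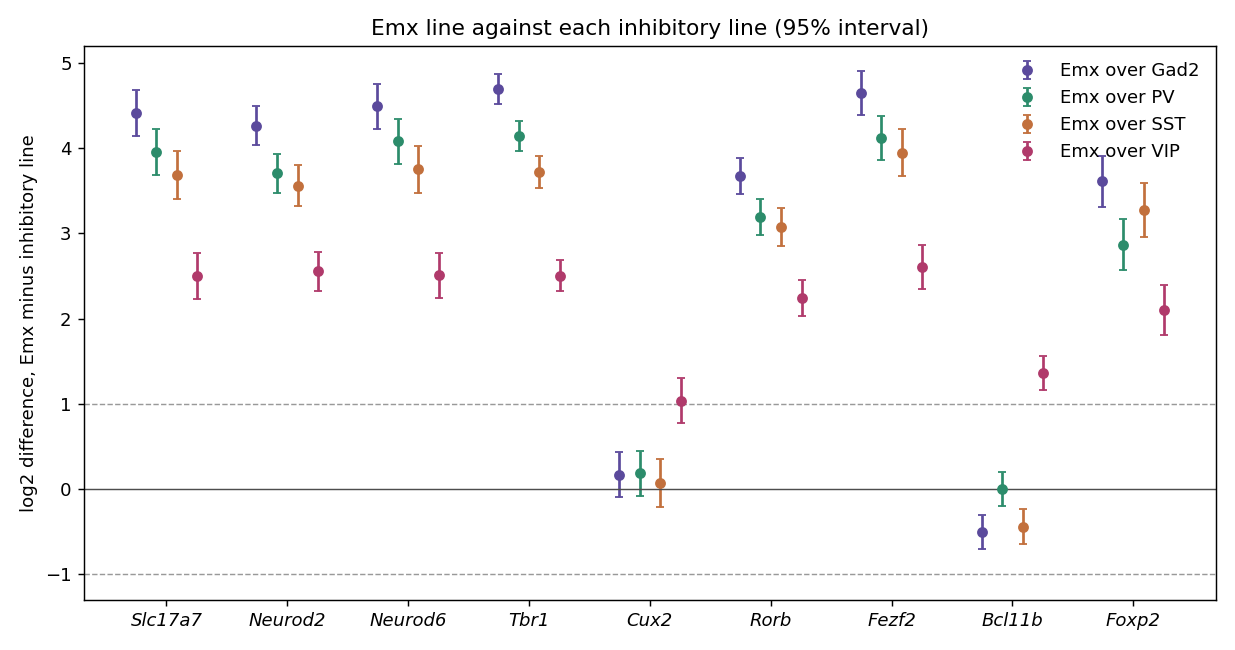
Fitted log2 difference of the Emx line over each inhibitory line for the 9 genes, with 95% intervals; dashed lines mark a 2-fold difference. Tbr1 over Gad2 is highest at 4.69, and Bcl11b over Gad2 is lowest at -0.50.

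Among the inhibitory lines, VIP libraries carried the most signal of the genes that were high in Emx, and the least Cux2 and Bcl11b. Between Gad2 and VIP, 7 genes were called lower in Gad2 (beside 9.75% of all genes) and 1, Bcl11b, was called higher (beside 7.18%). Between PV and VIP, 5 were called lower in PV (17.2% of all genes) and Bcl11b higher (9.36%), while Rorb and Foxp2 differed by less than 2-fold (log2 -0.95 and -0.77). Without replicate number 1 the Rorb difference was -1.04 and passed the rule. Between SST and VIP, 6 were called lower in SST (9.72% of all genes) and Bcl11b higher (6.35%). Neurod2 was among the 6 at a log2 difference of -1.0015, and with the replicate block it was -0.97 and fell short of 2-fold, leaving 5, beside 9.62% of all genes. The call of Neurod2 was also lost without replicate number 1 (-0.87) or 2 (-0.85), with a pseudocount of 10 (-0.98), under TMM scaling (-0.99) and in dark-housed groups alone (-0.89), where that of Neurod6 was lost too (-0.97). Cux2 missed the 2-fold line in all 3 comparisons, with log2 differences over VIP of 0.87 in Gad2, 0.85 in PV and 0.96 in SST, and it passed that line without replicate number 2 in Gad2 (1.03) and in SST (1.07), and without number 3 in SST (1.05). The summed excitatory markers moved in the same order, with medians of 19662 (Gad2), 21507 (PV), 24845 (SST) and 60644 (VIP), and so did the astrocyte markers, with medians of 15349, 16398, 19800 and 60719.

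No member was called between Gad2, PV and SST, where 9.16% (Gad2 and PV), 7.39% (Gad2 and SST) and 13.8% (PV and SST) of all genes were called in either direction. Smaller differences passed the 5% rate without reaching 2-fold. In Gad2 compared with PV this held for 8 of 9 genes, all but Cux2, beside 38.9% of all genes past that rate at any size, with Bcl11b at a log2 difference of 0.50 and Foxp2 at -0.74. In Gad2 compared with SST, Tbr1 came closest to the 2-fold line at -0.98 (SE 0.09), and it was -1.10 without replicate number 1. Slc17a7 in Gad2 against SST differed by -0.73 (SE 0.14), and Bcl11b by 0.06 (95% interval -0.15 to 0.27).

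Setting each gene against Slc17a7 in the same library asks whether it follows the general excitatory signal from line to line. By this measure Neurod2, Neurod6, Tbr1 and Fezf2 stayed closest to Slc17a7, and Rorb, Foxp2, Cux2 and Bcl11b lay further from it. For Neurod2, Neurod6, Tbr1 and Fezf2, the log2 difference of Emx over each inhibitory line, relative to that of Slc17a7, lay between -0.25 and 0.28. None of those 16 values was called, although that of Tbr1 against Gad2, 0.28 (95% interval 0.06 to 0.50, adjusted p = 0.01541), passed the 5% rate, as did Neurod2 and Tbr1 against PV and Fezf2 against SST with the block only (adjusted p = 0.01121, 0.03162 and 0.02163). Rorb was lower in Emx relative to Slc17a7 by -0.74 against Gad2, -0.76 against PV and -0.61 against SST (SE 0.13 to 0.14, adjusted p = 9.236e-07, 5.061e-07 and 6.784e-05), all under 2-fold. Against VIP it was -0.26 (adjusted p = 0.06166, and 0.005219 with the block). Foxp2 was at -0.80 against Gad2, -1.09 against PV, -0.41 against SST and -0.40 against VIP, of which the difference from PV was called (SE 0.18, adjusted p = 1.715e-07). The Gad2 difference of Foxp2 was -1.01 without replicate number 3 and would then be called.

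Cux2 and Bcl11b were called lower in Emx relative to Slc17a7 against all 4 lines. The log2 differences were -4.25, -3.76, -3.61 and -1.46 for Cux2 and -4.91, -3.95, -4.12 and -1.14 for Bcl11b, against Gad2, PV, SST and VIP in that order. Because Slc17a7 itself is far higher in Emx, 97.3%, 93.4%, 94.9% and 90.5% of all genes were called lower relative to it in those comparisons. A call of this kind is near the background.

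**Figure D3:**
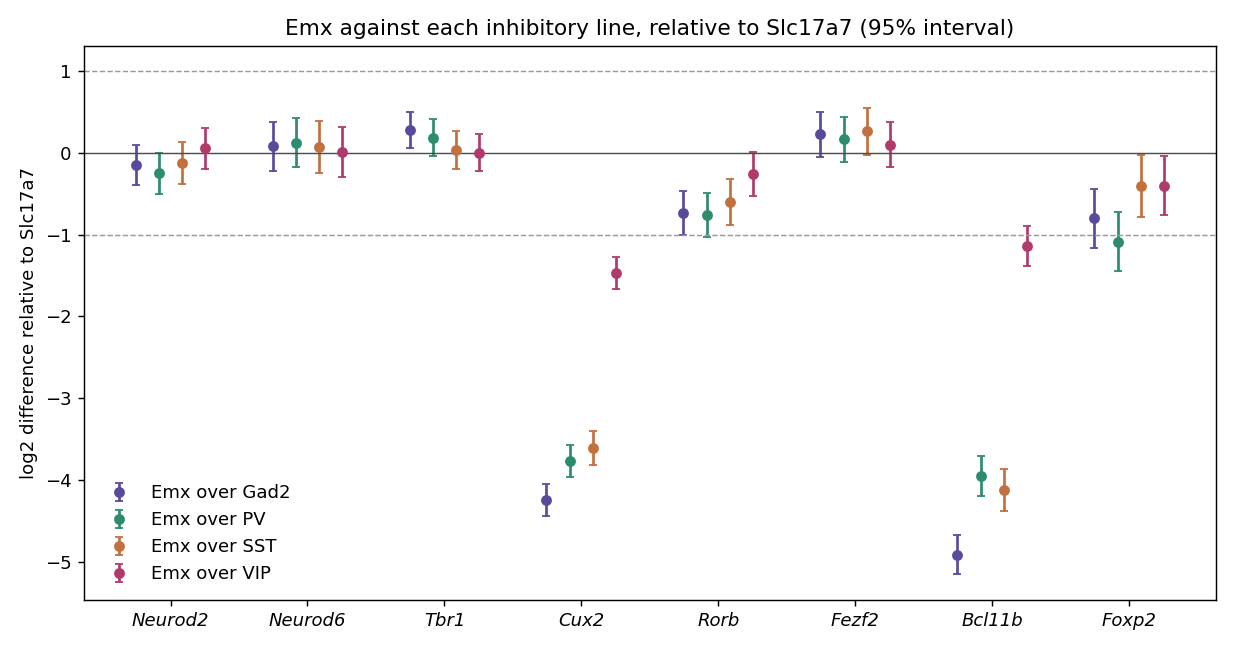
Log2 difference of Emx over each inhibitory line for 8 genes, relative to that of Slc17a7, with 95% intervals; dashed lines mark a 2-fold difference. Neurod2, Neurod6, Tbr1 and Fezf2 lie within 0.28 of 0, Rorb and Foxp2 lie below 0, and Cux2 and Bcl11b lie furthest below, at -4.25 and -4.91 against Gad2.

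Across the 25 group means of line and housing, the 7 genes that were high in Emx correlated with each other at Pearson r of 0.945 (Neurod6 and Foxp2) to 0.993 (each pair among Slc17a7, Tbr1 and Fezf2, at this rounding). Cux2 and Bcl11b correlated with each other at 0.889, and with the other 7 at -0.324 to 0.082. The points share lines and libraries, and 5 of every 25 come from the same Cre line, so the correlations mostly record the order of lines. The genes most like each member, among 11895 genes with a mean signal of at least 50, were of 2 kinds. Sv2b (a synaptic vesicle protein) led the lists of Neurod2 and Neurod6, at 0.991 and 0.993. Astrocyte genes stood among them. Apoe and Gja1 were among the 3 most like Slc17a7 (0.995 each), Gfap was among those most like Tbr1 (0.994), Kcnj10 was second for Neurod6 (0.993) and Apoe was first for Fezf2 (0.994). Gja1, the astrocyte gap junction protein, averaged 2439 ± 353 in Emx, against 102 ± 21.6 (Gad2), 148 ± 37.7 (PV), 180.5 ± 66.5 (SST) and 472 ± 71.7 (VIP), the order of lines that Slc17a7 had. Genes picked for likeness to Slc17a7 tend to share that order by their selection. Rorb was closest to Neurod2 (0.990), Sv2b (0.988) and Crym (0.988), and Foxp2 to Rorb (0.977), Abhd4 (0.973) and Myo6 (0.972).

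Cux2 and Bcl11b had other companions. Chn2, which encodes the signalling protein beta-chimaerin, was most like Cux2 (0.968), followed by Cyp46a1 (0.965), the brain cholesterol hydroxylase, and Lphn2 (0.963), an adhesion receptor. Mpped1 was most like Bcl11b (0.970), followed by Mctp1 (0.958) and Nppc (0.941). Mpped1 averaged 4342 ± 380.2 in Emx, against 6207 ± 397 (Gad2), 5117 ± 354 (PV), 8918 ± 829 (SST) and 1115 ± 161 (VIP). All 6 of these genes were lowest in VIP, the line in which Cux2 and Bcl11b were lowest. They were picked for likeness over these same group means, so a shared lowest line follows largely from the selection.

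Other genes of the excitatory class and of the layers showed how far the pattern reached. Of 17 pan-excitatory genes, 14 were called higher in Emx than in Gad2 and 0 lower, with a median log2 difference of 3.74 beside -0.01 for all genes tested. The largest were Itpka at 4.39 and Nrgn at 4.24, which encode a kinase of inositol trisphosphate and the calmodulin-binding neurogranin. Lmo3, Mef2c and Slc30a3 were not called, at 0.03, 0.36 and 0.35. Of 17 genes of layers 2 to 4, 11 were called higher and 0 lower (median 2.01), led by Pou3f1 at 4.36, Stard8 at 3.88 and Mdga1 at 3.32. The 6 not called were Calb1, Cux1, Lamp5, Pou3f3, Rasgrf2 and Unc5d, at -0.73 (Rasgrf2) to 0.75 (Lamp5).

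Layer 5 and layer 6 genes went both ways. Of 16 layer 5 genes found of 17 listed, 10 were called higher in Emx than in Gad2 and 2 lower (median 1.52). Crym, at 5.27, was followed by Hsd11b1 at 3.87 and Pamr1 at 3.83, and the 2 lower were Rbp4 at -3.69 and Parm1 at -1.99. Of 18 genes of layers 6 and 6b, 10 were called higher and 2 lower (median 1.72). Rprm, at 4.23, Nxph4, at 3.91, and Car12, at 3.68, were the highest, and Moxd1, at -4.51, and Cplx3, at -1.02, were the lower ones. Rbp4 averaged 161 ± 60.9 in Emx and 2013 ± 394 in Gad2, and Moxd1 averaged 49.8 ± 19.6 in Emx and 1064 ± 112 in Gad2 (SD, n = 15 each). With the block the counts of these lists in this comparison were the same.

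Paralogs of the members differed from them in places. Of 10 paralogs found of 13 listed, 4 were called higher in Emx than in Gad2 and 1 lower. Slc17a6, which encodes the vesicular glutamate transporter VGLUT2, was higher at a log2 difference of 4.52 (SE 0.13). Also higher were Neurod1 at 4.13 (SE 0.24), Eomes at 2.18 (SE 0.55) and Foxp1, relative of Foxp2, at 2.102. Slc17a8, which encodes VGLUT3, was lower in Emx at -1.84 (SE 0.41). A median signal below 50 was found for 2 of the 10 paralogs in Emx and for 4 in Gad2. Cux1 differed by 0.16 (adjusted p = 0.1546, and 0.0003118 with the block), beside 0.17 for Cux2. Cux1 and Neurod1 are also counted in the upper-layer and pan-excitatory lists, and Foxp1 in that of layers 6 and 6b. Bcl11a differed by 0.82 (adjusted p = 5.638e-12), beside -0.50 for Bcl11b, both under 2-fold.

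Light and standard housing were each compared with dark housing within a line. Of 180 tests (9 genes, 5 lines and 4 contrasts with dark housing), 1 was called at the 5% rate over all genes, beside 0.495% of all tests of genes, and 16 had an unadjusted p under 0.05. With the replicate number as a block, 15 were called, beside 4.81% of all tests of genes, 9 of them in Emx, 5 in PV, 1 in Gad2 and 0 in SST and VIP. The share of all tests called with the block in each line was 10.5% (Emx), 2.97% (PV), 3.38% (Gad2), 6.04% (SST) and 1.19% (VIP). The largest of the 15 was a fall of Foxp2 by 0.89 on the log2 scale in PV, and none reached 2-fold. The block is given beside each result here because same-numbered samples deviated together in every line. In Emx, for example, Slc17a7 was 16872 to 19568 in the 5 libraries of number 3, against 23413 to 29714 in the 10 libraries of numbers 1 and 2.

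Foxp2, the forkhead factor of layer 6, fell in Emx after 7.5 h of light. Its signal was 628, 482 and 534 after 7.5 h, against 938, 857 and 781 in the dark. In the other Emx groups it was 775, 797 and 676 after 1 h, 662, 744 and 579 after 3 h, and 662, 692 and 571 in standard housing. All 3 libraries after 3 h, after 7.5 h and in standard housing lay below every dark library. These contrasts share the same dark libraries. The share of all genes whose groups did not overlap was not counted, here or in the light results below. The log2 difference after 7.5 h was -0.65 (SE 0.15, adjusted p = 0.0241; with the block adjusted p = 5.964e-05), the only member called without the block, beside 1.28% of all genes called lower there. Leaving out 1 library in turn gave -0.75 to -0.56, and the call without the block was kept only without 7.5 h replicate 1 (adjusted p = 0.0308). It was lost without dark replicate 1, 2 or 3 (0.0946, 0.0938 and 0.0503) and without 7.5 h replicate 2 or 3 (0.0959 and 0.0695). With the block it held in 6 of 6 such fits (highest adjusted p = 0.00109). After 3 h the difference was -0.38 (block adjusted p = 0.01634) and in standard housing -0.42 (block adjusted p = 0.04846, beside 0.169% of all genes called lower). The call in standard housing was lost in all 6 fits that left out a library, at adjusted p of 0.0645 to 0.182, and the call at 3 h was kept in 2 of 6 (up to 0.0978). Foxp2 rested on 255 to 450.2 reads in the 7.5 h libraries, against 914 to 1943 in the dark.

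Rorb, the layer 4 receptor, was 7906, 4689.8 and 5149.5 after 7.5 h in Emx, against 9560.1, 7677 and 6735 in the dark. The ranges overlapped, and replicate 1 was the highest library of each group. Its log2 difference was -0.46 (SE 0.18, adjusted p = 0.2113), called with the block (adjusted p = 0.00641), beside 13.0% of all genes called lower with the block. That call held in all 6 fits that left out a library (highest adjusted p = 0.0341), and without the block Rorb was called when 7.5 h replicate 1 was left out (-0.69, adjusted p = 0.041). Several summed markers in the same libraries overlapped between 7.5 h and dark, at 122982 to 169629 against 123670 to 168835 for excitatory neurons, 180258 to 220315 against 162761 to 206754 for astrocytes and 4745 to 6470 against 5832 to 6911 for the 5 thalamic markers found. Others did not overlap. The 6 VIP neuron markers, 1 of them at a median of 0 in Emx, summed to 299 to 756 after 7.5 h, against 69.5 to 106 in the dark, and were also above the dark level after 3 h (164 to 335) and in standard housing (264 to 629). The 8 striatal markers summed to 6355 to 7395 after 7.5 h and 6363 to 6946 after 3 h, against 5316 to 6308 in the dark, and the 10 inhibitory markers to 5493 to 5787 after 3 h, against 4058 to 5203 in the dark. The part of these cells in the Emx changes described here was not tested.

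**Figure D4:**
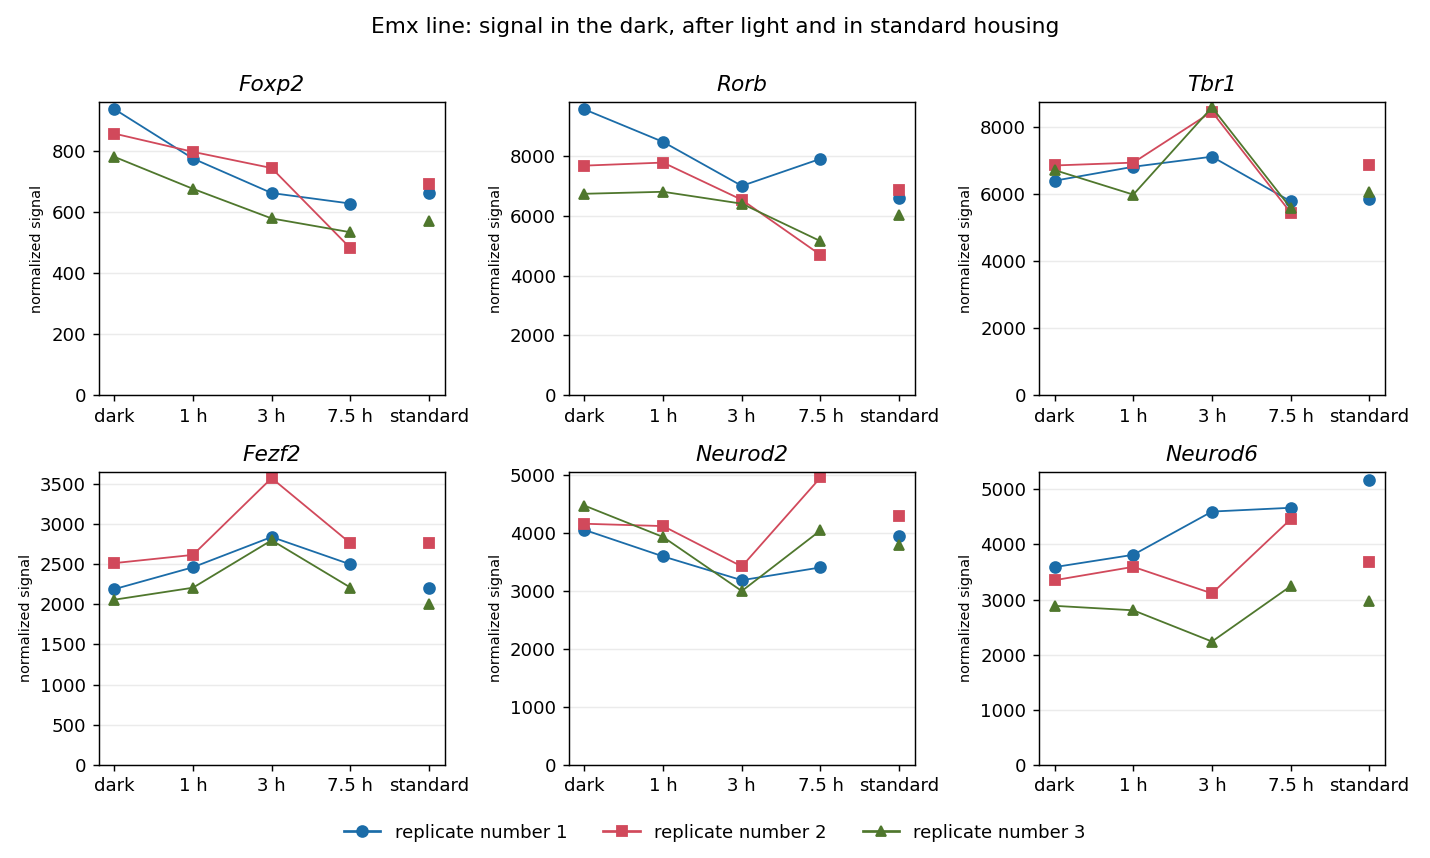
Normalized signal of 6 genes in the Emx line in the dark, after 1 h, 3 h and 7.5 h of light and in standard housing; each point is a library, lines join libraries of the same replicate number, and axes start at 0. Foxp2 lies at 482 to 628 after 7.5 h, below all 3 dark libraries (781 to 938), while Fezf2 and Tbr1 peak at 3 h.

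The other Emx changes were called with the block only. After 3 h, Fezf2, the layer 5 fate factor, was 2840, 3575 and 2799.7, against 2189.8, 2515 and 2058 in the dark, so the groups did not overlap. The log2 difference was 0.44 (SE 0.15, adjusted p = 0.2923; block adjusted p = 0.0001229), beside 7.35% of all genes called higher with the block. Tbr1 was 7111, 8452 and 8582 after 3 h, against 6394, 6848 and 6711 in the dark, a difference of 0.27 (block adjusted p = 0.01675). After 7.5 h Tbr1 was 5779, 5441 and 5581, below all dark libraries, a difference of -0.25 (block adjusted p = 0.01551). Tbr1 thus stood above the dark level at 3 h and below it at 7.5 h. Leaving out a library kept the call of Fezf2 in 6 of 6 fits with the block, that of Tbr1 at 3 h in 1 of 6 (up to adjusted p = 0.17) and that of Tbr1 at 7.5 h in 4 of 6 (up to 0.106).

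Among the Neurod factors, Neurod2 was 3186, 3424 and 2999.6 after 3 h, against 4055.5, 4161 and 4475 in the dark, with no overlap. The log2 difference was -0.40 (SE 0.14, adjusted p = 0.277; block adjusted p = 0.001798), beside 4.91% of all genes called lower with the block, and the call held in 6 of 6 fits that left out a library. After 7.5 h Neurod2 was 3407, 4960 and 4046, values that lie on both sides of the dark ones. Neurod6 after 7.5 h was 4666, 4459 and 3242, against 3589, 3351 and 2886 in the dark, and the groups overlapped. Its difference was 0.32 (SE 0.25, block adjusted p = 0.02861), beside 12.9% of all genes called higher with the block, and was kept in 2 of 6 such fits (up to adjusted p = 0.168). Slc17a7, Cux2 and Bcl11b were not called in any Emx contrast, and in the whole of Emx the members' log2 differences lay between -0.65 and 0.44.

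In the inhibitory lines no member was called by limma without the block in 144 tests, of which 9 had an unadjusted p under 0.05, and 6 were called with it. Of all tests of genes in those lines, 0.266% were called without the block and 3.39% with it. With the block, Rorb fell in PV after 3 h. It was 840.4, 609 and 557 after 3 h, against 1343, 803 and 869.9 in the dark, a log2 difference of -0.57 (SE 0.28, adjusted p = 1; block adjusted p = 0.0008713), beside 0.120% of all genes called lower with the block. After 7.5 h Rorb in PV was 925, 609.5 and 526, a difference of -0.55 (block adjusted p = 0.0003577), beside 2.61%. In standard housing it was 979, 674 and 574.5, a difference of -0.44 (block adjusted p = 0.01058), beside 0.775%. The PV groups overlapped in each case, and replicate 1 was the highest library of every group. The calls at 3 h and 7.5 h held in 6 of 6 fits that left out a library, and that of standard housing in 3 of 6 (up to adjusted p = 0.107).

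Rorb also fell in Gad2 in standard housing with the block, at 507, 426 and 387, against 720.03, 589 and 494 in the dark, with 1 library overlapping, a log2 difference of -0.44 (SE 0.17, block adjusted p = 0.03287), beside 0.141% of all genes. That call was lost in all 6 fits that left out a library (adjusted p 0.0552 to 0.215). In PV after 7.5 h, Foxp2 was 93.7, 63.1 and 42.6, against 95.4, 141 and 121.5 in the dark, with no overlap. Its difference was -0.89 (SE 0.32, block adjusted p = 0.0491), and the call was kept in 2 of 6 fits (up to adjusted p = 0.257). It rested on 18 to 61 reads after 7.5 h, against 114 to 259 in the dark. Bcl11b in PV after 7.5 h was 2929, 2396 and 2240, against 2414, 1818 and 1923 in the dark, with overlap, a difference of 0.30 (SE 0.20, block adjusted p = 0.007685), beside 5.29% of all genes called higher, and was kept in 4 of 6 fits (up to adjusted p = 0.0684). The summed VIP neuron markers in PV libraries were 127 to 305 after 3 h, 148 to 331 after 7.5 h and 129 to 203 in standard housing, against 64.2 to 118 in the dark. The striatal sum was 3636 to 4621 after 3 h, against 3224 to 3557 in the dark, and the sum of 6 SST neuron markers was 2159 to 2392 after 7.5 h, against 1519 to 2157 in the dark. In Gad2, the SST neuron sum was 70420.2 to 85901 in standard housing, against 57500 to 66964 in the dark, and the PV neuron sum was 65565 to 69055, against 58875 to 64124 in the dark. The microglial sum in PV was 333 to 451 in standard housing, against 457 to 546 in the dark. Slc17a7, as the general excitatory signal, was 1016 to 1670 in PV in the dark. It was 1190 to 1872 after 3 h, 1179 to 2290 after 7.5 h and 1186 to 2172 in standard housing. In Gad2 it was 866 to 1269 in standard housing, against 900 to 1321 in the dark. The part of these cells and of RNA from excitatory neurons in the PV and Gad2 changes was not tested.

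Set against the dark library of the same replicate number, Rorb after 7.5 h was lower in 14 of 14 libraries over the 5 lines, with a median log2 difference of -0.30. In standard housing it was lower in 13 of 14 (median -0.46), after 3 h in 12 of 14 (-0.25) and after 1 h in 9 of 14 (-0.16). Foxp2 was lower in 12 of 14 after 7.5 h (median -0.59), in 11 of 14 in standard housing (-0.32) and in 9 of 14 after 3 h (-0.34). Tbr1 was lower in 12 of 14 after 7.5 h (-0.22). Slc17a7, by the same measure, was lower in 5 of 14 after 7.5 h (0.07) and Bcl11b in 7 of 14 (0.02). Neurod6 was lower in 1 of 14 after 7.5 h (0.39), and Neurod2 in 13 of 14 after 3 h (-0.43) and 12 of 14 in standard housing (-0.24). Cux2 was lower in 10 of 14 after 7.5 h (-0.15) and Fezf2 in 4 of 14 after 3 h (0.33). These counts pool lines after the values were seen and carry no test. The same counts were not made over all genes, so how common such counts are is not known. The 7.5 h and standard libraries were also the shallowest, and the part of depth in these differences was not tested.

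**Figure D5:**
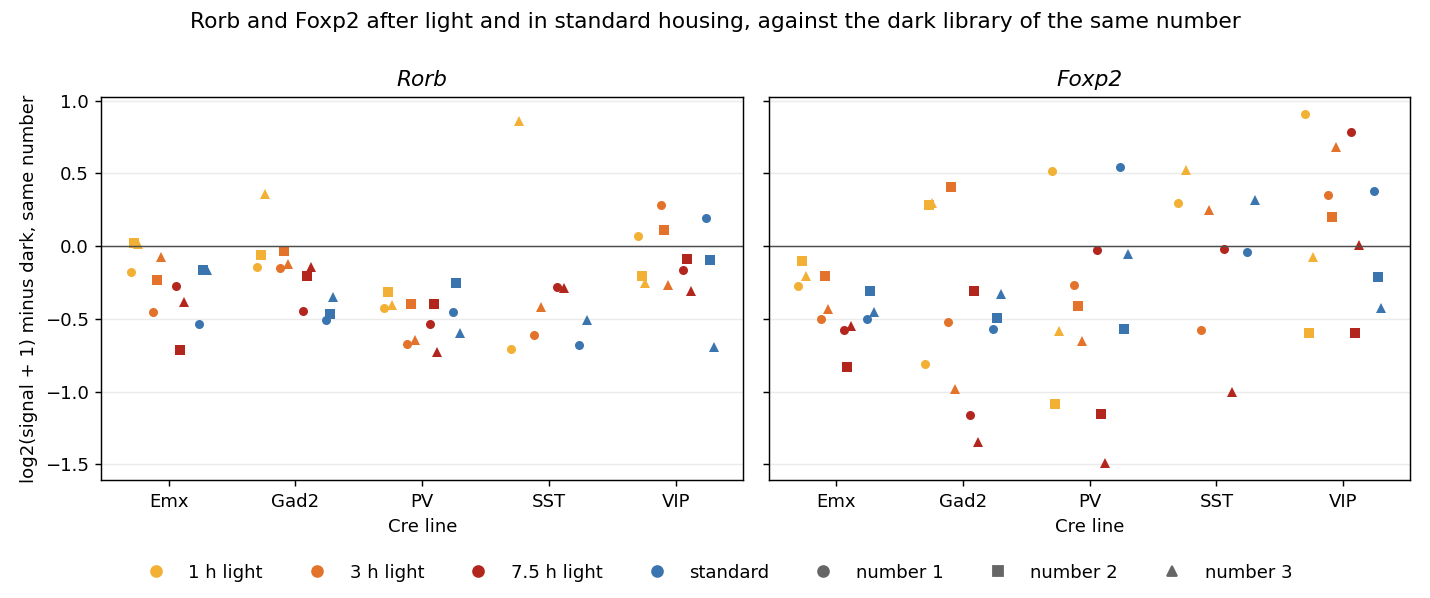
Log2(signal + 1) of Rorb and Foxp2 after light or in standard housing minus that of the dark library of the same line and replicate number; colours give the housing and marker shapes the number. All 14 Rorb points after 7.5 h lie below 0 (median -0.30), while Foxp2 points spread widely outside Emx. The same count was not made over all genes.

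Whether light acted differently in Emx and in an inhibitory line was tested as an interaction over the 3 light times. None of 36 tests (9 genes, 4 inhibitory lines) was called, with or without the block, and without it 0 had an unadjusted p under 0.05 (lowest 0.232). The lowest adjusted p with the block was 0.3348, for Cux2 in Emx and VIP. Of all genes, 0.155% (Gad2), 0.183% (PV), 0.183% (SST) and 0.380% (VIP) were called, and 1.48%, 1.53%, 1.08% and 3.51% with the block. The light changes described for Emx are thus not shown to differ from those of the inhibitory lines. PV was tested only against Emx, and standard housing was not part of the test.

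Light also changed some other listed genes in Emx, and all of those named here but Baiap2 by more than any member. They were picked as the largest called changes of each list, so their size follows partly from the selection. Nr4a2, an inducible nuclear receptor that also marks layer 6b, rose by 2.37 (log2) after 1 h (SE 0.20, adjusted p = 1.679e-05) and by 1.46 after 3 h. Rprm, a layer 6 gene, fell by 1.06 after 3 h and by 1.41 after 7.5 h (SE 0.17, adjusted p = 0.0003348). After 7.5 h, Car12 and Trh of the layer 6 list rose by 3.65 and 1.85, Stard8 of the upper layers rose by 1.22 and Plxnd1 fell by 0.80, and Rbp4 of layer 5 rose by 1.19 and Deptor fell by 0.79. Among pan-excitatory genes Baiap2 rose by 0.57 after 3 h. Over the 4 Emx contrasts the calls were 1 of 68 tests in the pan-excitatory list, 2 of 68 in the upper-layer list, 2 of 64 in layer 5, 6 of 72 in layers 6 and 6b and 0 of 40 in the paralogs, beside 1.41% of all tests of genes in those contrasts. With the block they were 15, 15, 12, 17 and 4, beside 10.5% of all. The VIP neuron and striatal marker sums given above moved in the same libraries, and their part in these calls was not tested.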

How the data were processed

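Ribosome-bound RNA was amplified by SPIA and sequenced as single-end 50 bp reads, per the labels' protocols. The submitters' processing notes name BWA, Bowtie2 2.1.0.0, TopHat2 2.0.13, Cuffdiff 2.2.1, Cuffnorm and the genome build mm9, with no role or order; strand handling is not given in the sources used here. The deposited values are a normalized signal per gene, which the authors did not divide by length. Low values were whole multiples of the worth of 1 read (0.422 to 3.40) within 0.1 read for 92.7% to 96.5% of values, from which depth was estimated; too many were not whole for a count test. Of 14284 gene names, 23 had turned into dates and were dropped. Intervals and read numbers cover amplified reads, not independent molecules.

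Genes that reached a signal of 1 in 3 or more libraries were tested on log2(signal + 1) with limma 3.58.1 (statmod 1.5.0, R 4.3.3), using a robust, trended variance and Benjamini-Hochberg adjustment over all genes at 5%. That scale understates the change of low genes. Lines were compared in 1 fit of 25 groups, with a 2-fold minimum, and housing within each line. Genes listed at 0 in a library, although the other libraries had a median of 50 or more reads, were set aside as possibly failed estimates (47 in the fit of all lines, 10 to 27 per line, 0 of the 9 genes). The fits without the block were run on simulated data with independent noise per library, for Emx after 7.5 h and for Emx against Gad2. The fits with the block were not simulated. Each sample is labelled as a biological replicate.

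Samples of the same replicate number deviated together. Over 11930 genes, every same-number pair within a line had a correlation of deviations above 0.1 (lowest by line: Emx 0.337, Gad2 0.109, PV 0.393, SST 0.410, VIP 0.199). The number therefore pairs the samples, and a fit with the number as a block stands beside each result it changes. Between lines, the block gave each number the same effect in all lines. Deviations of a number that differ from line to line were not removed, so SEs and p-values between lines may be too small with the block too.

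The 9 genes, the gene lists and the tests were chosen with earlier results of these data known. All 9 are named between lines, and under light those called with or without the block. For each member the 3 genes most like it are named (1 gene is not reported here), and of each list up to 3 called genes per direction in Emx against Gad2, and up to 2 per direction under light; listed genes not called, and Foxp1, were named after their values were seen. Alternatives were the block, pseudocounts of 0.1 and 10, no filter, genes set aside kept, TMM scaling, dark-housed groups alone, and leaving out replicates. Promoters come from RefSeq (GRCm38.p6), a build other than that of the reads, and were matched by symbol for 8 of 9 genes.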

Additional observations from a re-analysis of the deposited data

How the results depend on the processing

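The 7 genes called in Emx over Gad2, PV and SST numbered 7 under every alternative run, between Emx and VIP the count was 8 to 9, and between SST and VIP it was 5 to 8 (7 as reported). The values that turned sign were all near 0 and not called. When 1 replicate number was left out, Bcl11b in Emx over PV was -0.0930 to 0.0646, Cux2 in Emx over SST -0.0260 to 0.1781, Cux2 in Gad2 over PV -0.0021 to 0.0521 and Neurod2 in PV over SST -0.3042 to 0.0297. Relative to Slc17a7, Neurod6 was -0.0263 to 0.2748 (PV) and -0.0879 to 0.1522 (VIP), Tbr1 -0.0045 to 0.0793 (SST) and -0.0773 to 0.0514 (VIP), and Neurod2 -0.0615 to 0.1208 (VIP). TMM scaling gave -0.0799 for Bcl11b in Emx over PV, dark-housed groups alone gave -0.0326 for Cux2 in Gad2 over PV, and a pseudocount of 10 gave -0.0071 for Neurod6 and -0.0018 for Tbr1 relative to Slc17a7 (VIP). The cause was not tested.

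The count of members called between Gad2 and SST was 0 to 1 when a replicate number was left out. With the replicate block the counts under light were 4 in Emx at 3 h, 4 in Emx at 7.5 h, 1 in Emx in standard housing, 1 in Gad2 in standard housing, 1 in PV at 3 h, 3 in PV at 7.5 h and 1 in PV in standard housing. The block changed no other call of a member beyond these and that of Neurod2 between SST and VIP. Leaving out 1 library gave 0 to 2 calls in Emx at 7.5 h without the block. With the block, an alternative chosen after seeing the data, it gave 2 to 3 in Emx at 3 h, 2 to 4 in Emx at 7.5 h, 1 in PV at 3 h, 1 to 3 in PV at 7.5 h, 0 to 2 in PV in standard housing, and 0 to 1 in Gad2 at 7.5 h, SST at 3 h and SST at 7.5 h.

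TMM scaling moved the median of all genes by 0.005 to 0.082 (log2) between lines. The edgeR alternative was not run, because the deposited values did not all give whole reads. Depth limits Foxp2 most, with as few as 11 reads in a library.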
